A study of Mus musculus with 16 samples.

Results

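The Hist1h genes are the protein_coding genes of mouse chromosome 13 whose symbol begins with Hist1h in GENCODE vM21 (mm10), the large cluster of histone genes. The rule took 54 of the 21938 protein_coding genes on the chromosomes, and it used no measured value. They encode 6 H1, 13 H2A, 15 H2B, 9 H3 and 11 H4 histones. CpG methylation over each gene with 500 bp on either side (the gene window) and over its flanks from 1 to 3 kb was taken from whole genome bisulphite sequencing (WGBS) of 16 libraries of splenic lymphocytes.

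Replication-dependent histone genes supply the core histones H2A, H2B, H3 and H4, which form the nucleosome, and the linker histone H1, which binds the DNA between nucleosomes. They are short, mostly without introns, and are transcribed as cells copy their DNA, and their mRNAs end in a stem-loop in place of a poly(A) tail. Many H2A and H2B genes lie head to head and share one promoter. CpG-rich promoters are as a rule unmethylated in somatic cells, while 3 Hist1h genes are best known from the testis. Hist1h1t encodes the linker histone H1t of spermatocytes, and Hist1h2ba and Hist1h2aa encode the germ-line variants TH2B and TH2A.

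All libraries came from C57BL/6J mice without a transgene or treatment, aged 6 to 8 weeks, with the animals of a sample pooled. The 8 B cell libraries were made from CD43- resting B cells and the 8 T cell libraries from naive CD4+ CD62L+ T cells, both isolated from spleen with magnetic beads. Each cell type had 4 male and 4 female libraries, and each sex of a cell type had 2 bisulphite (BS) and 2 oxidative bisulphite (oxBS) libraries. BS reads 5-methylcytosine and 5-hydroxymethylcytosine together, whereas the oxidation step of oxBS leaves 5-methylcytosine alone. The labels name no mouse, so libraries served as replicates, and p-values measure the spread between libraries, which may be partly technical because a BS and an oxBS library may hold DNA of the same mice. In such bulk DNA, a level between 0 and 100% does not tell few fully methylated cells from partly methylated alleles in every cell.

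The libraries held 123346598 to 170653234 calls at reference CpGs, or 5.64 to 7.80 calls per CpG. Start windows of the B cell markers were called between the cell types for 7 of 7 genes, with lower levels in B cells throughout. Those of the T cell markers were called for 7 of 8 genes, all with lower levels in T cells. The 2 CD8 genes were called too, with lower levels in T cells. Of 5 myeloid, 3 NK cell and 3 erythroid markers, 1, 0 and 0 start windows and 2, 1 and 2 gene windows were called (7.88% and 23.1% over all genes). B cell library 2 (male, oxBS) had the highest level of the B cell libraries at otherwise unmethylated genes.

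The 54 genes lay in 4 blocks separated by more than 100 kb. The first block, chr13:21715763-21837530, held 18 genes, the next, chr13:22035164-22043676, held 5 genes, and the largest, chr13:23531050-23764406, held 29 genes. The last block, chr13:23933773-23934851, held Hist1h2ba and Hist1h2aa alone. Because the genes are packed closely, 22 pairs of gene windows overlapped, 11 of them an H2A with an H2B gene, and 685 of the 3746 CpGs lay in more than 1 window. Neighbouring members are therefore not independent measurements.

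Of the 54 gene windows, 50 had enough calls, which required at least 20 calls over at least 4 CpGs in at least 5 libraries of each cell type. The H2B genes Hist1h2bq and Hist1h2br and the H2A genes Hist1h2ao and Hist1h2ap were not measured. Every one of their 136, 141, 87 and 93 CpGs lay in a stretch of 100 bases that recurs, after bisulphite conversion, in another histone gene window, and the authors kept only alignments with a mapping quality of at least 10. At the H4 genes Hist1h4m and Hist1h4n, 59 of 72 and 58 of 70 CpGs lay in such sequence, and these windows had 2.39 and 2.61 calls per CpG against a median of 6.99 over the measured members. All 54 flanks were measured. For Hist1h2bq, Hist1h2br, Hist1h2ao, Hist1h2ap, Hist1h4m and Hist1h4n, however, a whole side of the flank held no call in the median library.

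RefSeq promoters (GRCm38.p6, from 250 bases before to 50 bases after the annotated start) were at hand for 51 of the 54 genes. 4 of them are printed 5′ to 3′ on the strand of the gene, with every CpG, the base pair at which methylation was read, in capitals. They pair the methylated genes Hist1h1t (chr13:23695561-23695860, plus strand) and Hist1h2ba (chr13:23934107-23934406, minus strand) with the member of their type that had the lowest gene window level, Hist1h1b (chr13:21780576-21780875, minus strand) and Hist1h2bj (chr13:22042948-22043247, plus strand).
Hist1h1t: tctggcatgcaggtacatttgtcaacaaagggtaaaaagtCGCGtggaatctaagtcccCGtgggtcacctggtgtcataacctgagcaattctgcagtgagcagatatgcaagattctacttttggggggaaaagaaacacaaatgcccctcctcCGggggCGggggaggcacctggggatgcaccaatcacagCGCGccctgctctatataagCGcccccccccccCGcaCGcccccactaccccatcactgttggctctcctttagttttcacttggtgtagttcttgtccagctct
Hist1h1b: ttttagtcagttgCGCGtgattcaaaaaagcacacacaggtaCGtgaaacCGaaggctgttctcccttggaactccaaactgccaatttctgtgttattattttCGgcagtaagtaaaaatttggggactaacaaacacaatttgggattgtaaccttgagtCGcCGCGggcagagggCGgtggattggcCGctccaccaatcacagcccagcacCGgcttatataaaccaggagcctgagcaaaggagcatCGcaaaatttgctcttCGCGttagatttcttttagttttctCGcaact
Hist1h2ba: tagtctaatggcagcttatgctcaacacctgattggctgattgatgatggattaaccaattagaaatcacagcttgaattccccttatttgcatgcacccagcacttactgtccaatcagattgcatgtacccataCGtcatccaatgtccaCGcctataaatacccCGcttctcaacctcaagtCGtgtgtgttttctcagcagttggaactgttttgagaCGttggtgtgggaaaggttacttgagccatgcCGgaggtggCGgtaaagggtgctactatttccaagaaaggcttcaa
Hist1h2bj: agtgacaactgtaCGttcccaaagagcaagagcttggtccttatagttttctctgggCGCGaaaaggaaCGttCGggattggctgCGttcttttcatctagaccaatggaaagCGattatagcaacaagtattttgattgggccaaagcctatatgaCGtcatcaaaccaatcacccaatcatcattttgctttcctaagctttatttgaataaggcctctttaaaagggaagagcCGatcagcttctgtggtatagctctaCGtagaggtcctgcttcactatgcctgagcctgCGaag

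The 10 CpGs printed for Hist1h1t were methylated in 240 of 283 calls (84.8%) in B cells and in 351 of 387 calls (90.7%) in T cells. The 15 CpGs of Hist1h1b were methylated in 10 of 1009 calls (0.991%) in B cells versus 9 of 1384 calls (0.650%) in T cells. At Hist1h2ba, the 7 CpGs were methylated in 416 of 423 calls (98.3%) in B cells versus 460 of 472 calls (97.5%) in T cells. At Hist1h2bj, the 11 CpGs were methylated in 5 of 792 calls (0.631%) in B cells versus 1 of 999 calls (0.100%) in T cells. Promoters for the same type of histone thus stood at opposite ends of the scale in both cell types. Outside the 3 testis-associated genes, 39 promoters had calls in at least 5 libraries of each cell type, and their highest pooled level was 2.03% in B cells versus 0.661% in T cells.

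The promoters were searched on both strands for 3 sets of letters, each counted whatever its overlap with another. The CCAAT letters stood in all 6 H1, 13 H2A, 14 H2B and 7 H3 promoters but in 3 of the 11 H4 promoters (27.3%), against 37.4% of the 32851 RefSeq promoters. The TATAAA letters were found in 31 of the 51 promoters (60.8%) and in 13.6% of all promoters. The octamer letters ATTTGCAT, known from H2B promoters, stood in 6 of 14 H2B and 5 of 13 H2A promoters and in none of the H1, H3 or H4 promoters, against 1.74% of all promoters. A head-to-head H2A and H2B pair shares part of its 300 bases, so a match there counted for both genes. The Hist1h2ba promoter held 4 CCAAT matches and 1 ATTTGCAT match, at 164 bases before the start (-164), and that of Hist1h2bj held 5 CCAAT matches and no octamer. The annotated start of Hist1h2ba is its coding start, whereas that of Hist1h2bj lies 32 bases before the coding start. Positions are therefore not on the same scale in these genes. CpGs were denser than usual, with a median of 3.33 per 100 bases over the 51 promoters and 2.33 over all promoters.

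In the gene window, the Hist1h genes were nearly unmethylated. Their median level was 1.51% in B cells versus 0.864% in T cells, whereas the medians over all 21393 genes measured were 75.8% and 74.1%. A level of at most 20% over the 16 libraries was found for 45 of 50 members (90%), but for 4.24% of all genes and for 18.7% of the 1317 other genes of at most 2 kb. The 5 members above 20% were Hist1h2ba, Hist1h2aa, Hist1h1t, Hist1h2be and Hist1h2bc. Around the start site (500 bp on either side), where 64.9% of all genes were at 20% or less, 46 of 49 members were, the exceptions being the 3 testis-associated genes. The annotated start of Hist1h2be lies within Hist1h1e, apart from its own coding sequence, so its start window covers part of that gene.

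**Figure D1:**
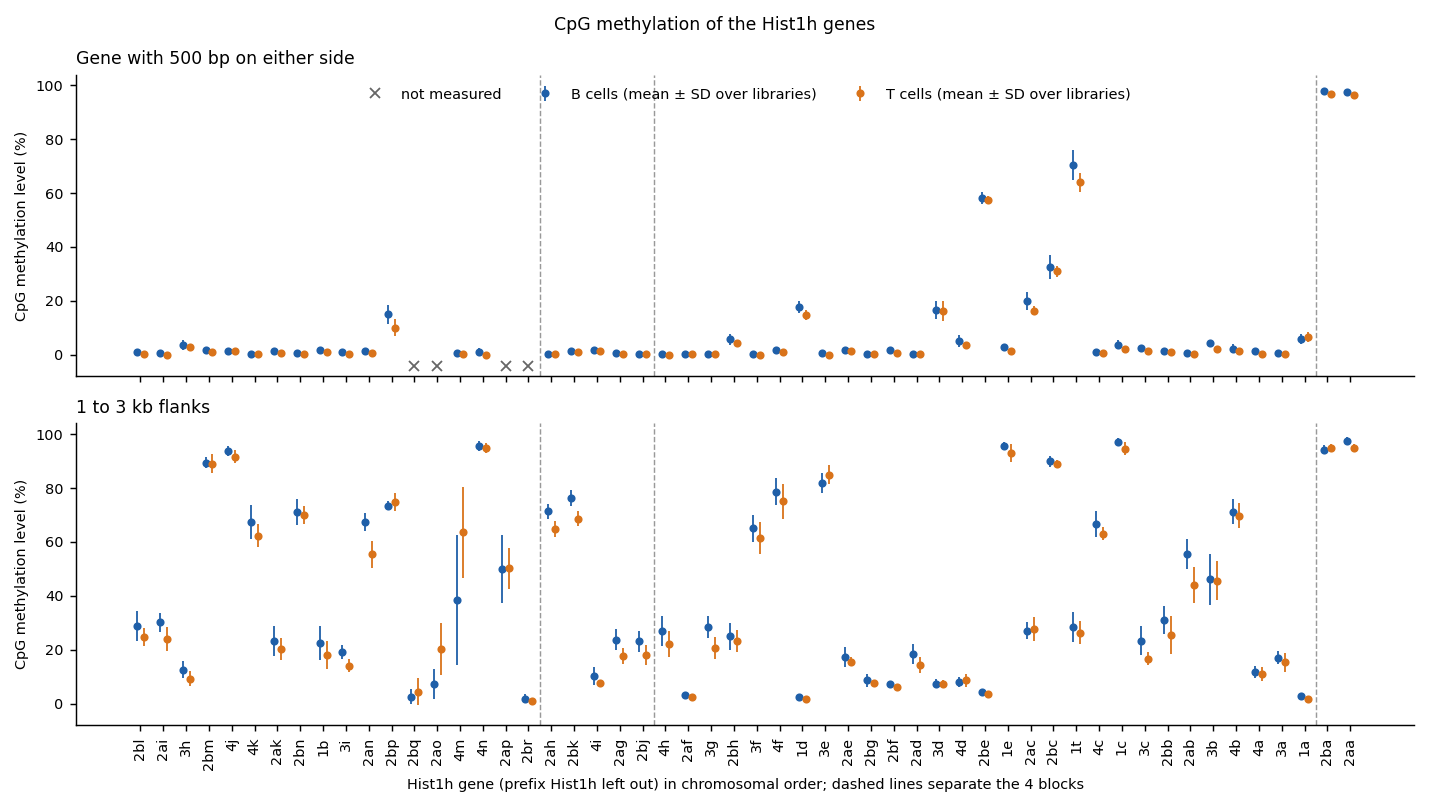
Mean CpG methylation level (%, with SD over 8 libraries of a cell type) of each Hist1h gene in chromosomal order, over the gene with 500 bp on either side (top) and over the 1 to 3 kb flanks (bottom). In the top panel 45 of the 50 measured genes lie at 20% or less and Hist1h2ba and Hist1h2aa lie above 96%, while the flanks spread over the whole scale.

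By histone type, the core histones had the lowest gene windows. The H2A genes had a median of 0.833% in B cells versus 0.435% in T cells, the H3 genes 0.991% and 0.348%, and the H4 genes 1.26% and 0.533%. The H2B genes had medians of 1.70% and 0.896%. The 6 H1 genes, whose products bind linker DNA, had medians of 4.89% and 4.36%, and of 3.75% and 2.05% without Hist1h1t. The gap depended on the window. Around the coding sequence with 500 bp on either side, the H1 median over the 16 libraries was 0.936%, or 0.687% without Hist1h1t. The medians there were 0.574% for H2A, 0.547% for H2B, 0.670% for H3 and 0.502% for H4. Genes of a type are not replicates, and the order of the types was not tested.

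Within the types, the levels of the lowest core histone members rested on few methylated calls. Hist1h3f had the lowest level, with 6 methylated calls of 2790 in B cells versus 3 of 3197 in T cells, and its libraries ran from 0 to 0.516% in B cells versus from 0 to 0.472% in T cells. Hist1h4h had 12 methylated calls of 4729 in B cells, 1 of 6072 in T cells, and Hist1h2bj 13 of 4453 and 9 of 5645. Hist1h2af, the lowest H2A gene, had 10 of 2519 and 6 of 3309. Hist1h1b, the lowest H1 gene, stood at 1.62% ± 1.19 (SD, n = 8) in B cells versus 0.986% ± 0.819 (SD, n = 8) in T cells. At the upper end, the highest H4 gene, Hist1h4d, was at 5.09% ± 2.25 and 3.79% ± 1.12, so no H4 gene reached 5% over the 16 libraries.

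Outside the testis-associated genes, the highest gene windows were those of the H2B genes with the longest annotation. Hist1h2be, annotated over 37455 bp, had levels of 55.1%, 57.9% and 61.3% (lowest, median and highest library) in B cells versus 54.1%, 57.7% and 59.0% in T cells. Hist1h2bc, over 8710 bp, had 28.4%, 31.1% and 39.8% in B cells versus 27.8%, 31.2% and 35.0% in T cells. For these H2B genes the libraries of the cell types overlapped almost entirely. The same genes were at 0.227% and 0.420% when the window was drawn around the coding sequence with 500 bp on either side, a window added after the levels were seen. Of the 47 measured members other than the 3, 8 were at 5% or more in the gene window but 1 was in the coding window, the H3 gene Hist1h3d at 6.32%. In the gene window, Hist1h3d was at 16.6% ± 3.39 in B cells versus 16.3% ± 3.85 in T cells (SD, n = 8). Its libraries ran from 12.6 to 23.3% and from 11.3 to 21.6%, so the cell types overlapped.

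The testis-associated genes were the methylated members. Hist1h2ba had library levels of 96.9%, 97.8% and 98.7% (lowest, median and highest) in B cells versus 96.1%, 97.1% and 97.6% in T cells. Its neighbour Hist1h2aa had 96.9%, 97.5% and 99.1% in B cells versus 94.5%, 96.7% and 97.4% in T cells. Both genes, which stand apart from the other blocks, were thus above 94% in every library. The B minus T differences were 0.901 points for Hist1h2ba (quasi-binomial test adjusted over all genes, adjusted p = 0.0938) and 1.18 points for Hist1h2aa (adjusted p = 0.0712). The exact permutation test, adjusted over all genes in the same way, called both, with adjusted p = 0.0274 and 0.0268.

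Hist1h1t had an intermediate gene window, at 61.9%, 70.97% and 77.8% (lowest, median and highest library) in B cells versus 58.9%, 64.7% and 68.6% in T cells. The cell types overlapped, and the difference of 6.44 points did not pass the quasi-binomial test over all genes (adjusted p = 0.0874). It lies inside the block of unmethylated genes, and the mean level hid a slope along the gene. In bins of 250 bp counted from the coding start, the pooled level was 79.4% in B cells versus 89.2% in T cells in the 250 bp before the start, and 74.5% and 81.6% in the first 250 bp. It was 64.5% and 51.4% from 250 to 500 bp, and 49.6% and 23.7% from 500 to 750 bp, before it returned to 89.6% and 80.8% from 750 to 1000 bp. Over the whole start window the means were 75.1% and 77.0%, and the difference did not pass the quasi-binomial test (adjusted p = 0.571). In the lowest bin, which holds 6 CpGs with 42 to 69 calls a library, the libraries stood at 33.3%, 49.5% and 67.4% in B cells versus 17.4%, 23.1% and 33.9% in T cells, with a slight overlap. The bins were drawn after the values were seen, and none was tested.

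**Figure D2:**
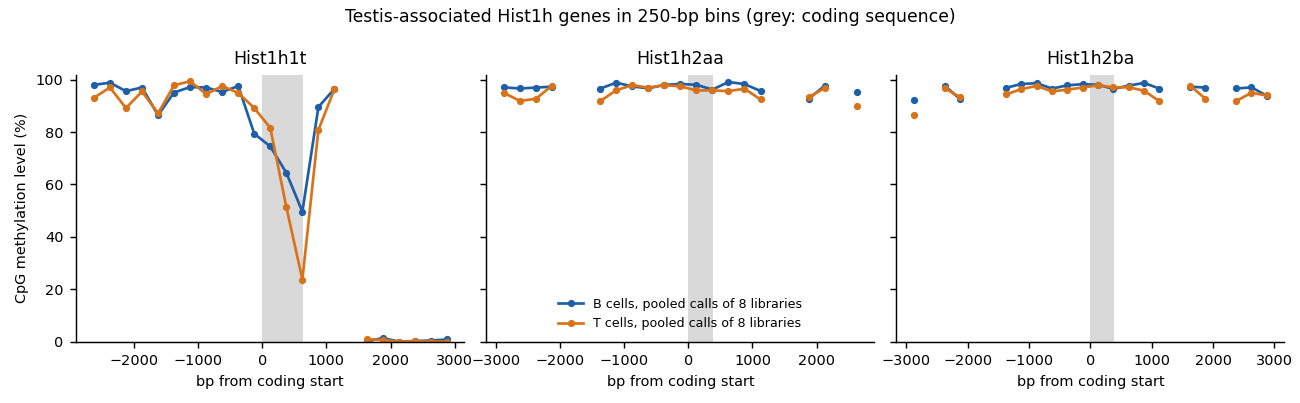
CpG methylation level (%, pooled calls of the 8 libraries of a cell type) in 250-bp bins against the distance in bp from the coding start, for the 3 testis-associated genes, with the coding sequence in grey. Hist1h2aa and Hist1h2ba stay high throughout, while Hist1h1t falls to 49.6% in B cells versus 23.7% in T cells from 500 to 750 bp and the neighbouring gene to its right is near 0.

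Runs of low methylation followed the coding sequences. Joining CpGs whose level over 5 neighbouring CpGs was under 20%, 31 regions held a coding sequence of a member, and 47 members had one. The regions were 885 to 3483 bp long, with a median of 1857 bp, 18 of them with 1 member and none with more than 3. When they were drawn from each cell type alone, 18 regions were longer in T cells, 3 were longer in B cells and 10 had the same length. Their summed length was 59049 bp in B cells versus 61116 bp in T cells. No test was run on these lengths, which depend on the level at single CpGs at the edges.

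**Figure D3:**
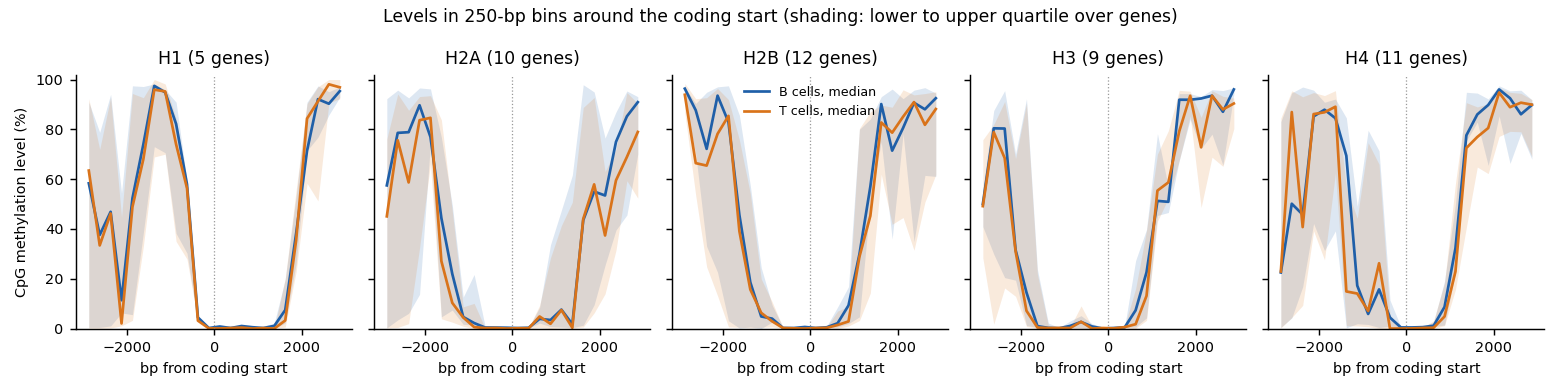
Median CpG methylation level (%) over the genes of each histone type, testis-associated genes left out, in 250-bp bins against the distance in bp from the coding start, with lower and upper quartiles shaded, in B cells and T cells. All 5 types have a trough around the start, and the quartiles farther out are wide.

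The flanks from 1 to 3 kb were intermediate. Their median was 28.5% in B cells versus 24.4% in T cells, against 86.9% and 86.2% over all genes, and 19 of 54 flanks were at 20% or less (35.2%, against 2.97% of all genes). H4 genes had the highest flanks, with a median of 64.8% over the 16 libraries. The medians were 27.1% for H2A, 26.7% for H2B, 23.8% for H1 and 19.99% for H3. The flank of 1 member was often the body of the next: 51 of the 54 flanks had a CpG within 500 bp of another Hist1h gene. These 51 had a median of 24.6%, while the 3 without one were between 89.3 and 95.9%. With CpGs within 500 bp of any protein_coding gene left out, the medians rose to 91.5% for H1, 79.1% for H2A, 85.7% for H2B, 75.5% for H3 and 88.4% for H4.

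Outside the 3 testis-associated genes, the arrangement was the reverse at Hist1h1d, Hist1h3d, Hist1h2be and Hist1h1a, with gene windows above the flanks. The testis-associated genes had it too. Over the 16 libraries, gene window and flanks were at 67.2% and 27.4% for Hist1h1t, 97.4% and 94.5% for Hist1h2ba, and 97.1% and 96.2% for Hist1h2aa. Hist1h1d, which encodes a somatic linker histone, was at 16.3% in the gene window and 2.09% in the flanks, which reach the neighbouring H3 and H4 genes. Its coding window was at 0.670%. Over the 47 members measured in both, other than the 3, the flank was above the gene window for 43 and above the coding window for 46.

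B and T cells were compared over the gene window to see whether the low levels differ between the lineages. The quasi-binomial model with sex and assay as covariates called 10 of 50 members (20%, against 23.1% of all genes tested). All 10 were higher in B cells, as were 19.4% of all genes, and none was higher in T cells (3.72% of all genes). The share of members called was close to that of all genes. Most differences were small: none reached 10 points (2.49% of all genes), and 49 of the 50 members had a higher mean in B cells, with a median difference of 0.643 points. Over all genes, 15870 of 21393 were higher in B cells. For no member were the library levels of the cell types separate, while they were for 6.6% of all genes.

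Among the 10 members called, the largest differences were at Hist1h2bp and Hist1h1d. Hist1h2bp, an H2B gene annotated over 1753 bp, had levels of 10.3%, 14.5% and 20.1% (lowest, median and highest library) in B cells versus 6.97%, 8.90% and 15.8% in T cells. Its means were 15.0% ± 3.44 and 10.0% ± 3.20 (SD, n = 8). The difference was 5.00 points (quasi-binomial adjusted p = 0.0485). Most B cell libraries lay above most T cell libraries, but 2 T cell libraries lay within the B cell range. Hist1h1d had 14.7%, 17.6% and 20.7% in B cells versus 13.04%, 14.1% and 17.6% in T cells, a difference of 3.06 points (quasi-binomial adjusted p = 0.0304). Each of these calls was lost when single libraries were left out, in 12 and 10 of the 16 fits. Without B cell library 2 the differences were 4.28 and 2.66 points (quasi-binomial adjusted p = 0.0823 and 0.0524).

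The H3 genes Hist1h3b, Hist1h3e and Hist1h3a were called as well. Hist1h3b had levels of 2.78%, 3.94% and 6.22% in B cells versus 1.54%, 2.18% and 2.98% in T cells, with the 3 highest T cell libraries just above the lowest B cell library. The difference was 1.92 points (quasi-binomial adjusted p = 0.0153), and Hist1h3b was the only member called in all 16 fits without 1 library. Hist1h3e had 18 methylated calls of 3322 in B cells versus 1 of 4462 in T cells, and Hist1h3a 32 of 5029 and 8 of 6318. Their differences were 0.553 and 0.542 points (adjusted p = 0.0194 and 0.0399 in the quasi-binomial test). Without B cell library 2 they were 0.519 and 0.344 points, and neither was called (quasi-binomial adjusted p = 0.139 and 0.125).

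Of the H4 genes, Hist1h4a, Hist1h4n and Hist1h4h were called. Hist1h4a had 54 methylated calls of 4867 in B cells versus 17 of 6606 in T cells, a difference of 1.01 points (quasi-binomial adjusted p = 0.0221). The difference was 0.656 points without B cell library 2 (quasi-binomial adjusted p = 0.0455), and the call was lost without B cell library 1 (0.0537). Hist1h4n had 16 of 1474 and 1 of 1447 (quasi-binomial adjusted p = 0.0108), on windows that mostly recur, and was not called without B cell library 11 (quasi-binomial adjusted p = 0.0857). Hist1h4h had 12 of 4729 and 1 of 6072 (quasi-binomial adjusted p = 0.0151), and 8 of the 12 came from B cell library 12. Without that library the quasi-binomial adjusted p of Hist1h4h was 0.215. The remaining calls were the H2B gene Hist1h2bf, with 67 of 3888 and 32 of 4145, and the H2A gene Hist1h2ai, with 25 of 3068 and 3 of 3900. The differences were 1.03 points for Hist1h2bf and 0.755 points for Hist1h2ai (quasi-binomial adjusted p = 0.0330 and 0.0407). Without B cell library 2 they were 1.08 and 0.544 points, and neither was called (quasi-binomial adjusted p = 0.0582 and 0.0598).

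**Figure D4:**
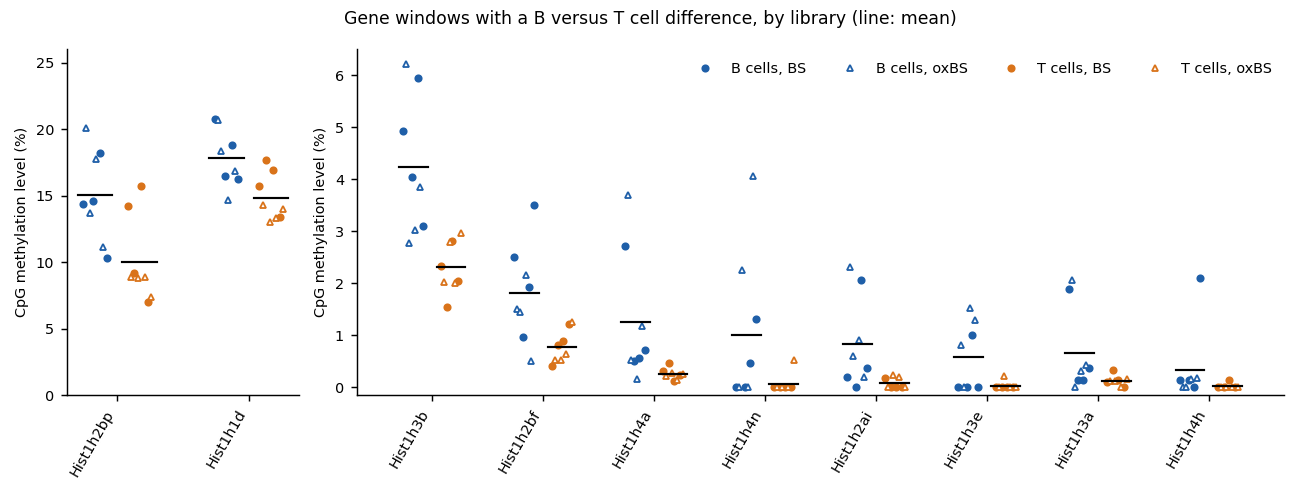
CpG methylation level (%) of each library over the gene window for the 10 Hist1h genes called between B and T cells, on 2 linear scales, with filled circles for BS, open triangles for oxBS and a line at the mean of 8 libraries. Every mean is higher in B cells, but the libraries of the cell types overlap for each gene, and for Hist1h4h 1 B cell library at 2.11% lies apart.

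The exact permutation test of 8 against 8 libraries also called 10 members (24% of all genes), 6 of them among these 10. It called Hist1h1e, Hist1h2aa, Hist1h2ba and Hist1h3i, and did not call Hist1h4n, Hist1h3e, Hist1h3a or Hist1h4h (exact permutation adjusted p from 0.122 to 0.262). The quasi-binomial test called none of the members with CpGs of fewer than 5 calls in a library left out, where 17.6% of all genes were still called. With BS or oxBS libraries alone, no member was called (2.59% and 16.4% of all genes). Summed over the 39 members under 5%, B cell libraries stood between 1.05 and 2.42% and T cell libraries between 0.532 and 0.995%. B cell library 2 was the highest at 2.42%, the next being at 1.58%. At other genes under 5%, the same library was again the highest of the B cell libraries (4.12%, in a range from 2.74%), with T cell libraries between 2.55 and 3.02%. Without B cell library 2, 4 members were called in place of 10 (20.2% of all genes). Leaving out B cell library 9 gave 6, and T cell library 6, 8 or 14 gave 5 each. The part of this baseline in the calls was not tested.

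At the start site, 2 of 49 members were called (4.08%, against 7.88% of all genes), Hist1h4n and Hist1h3e, both higher in B cells (5.07% of all genes were called in that direction, and 2.82% in the other). None reached 10 points (3.13% of all genes), and no member had separate libraries (3.05% of all genes). Hist1h3e had 18 methylated calls of 3201 in B cells versus 1 of 4343 in T cells (quasi-binomial adjusted p = 0.0412), and Hist1h4n 13 of 946 and 1 of 815 (adjusted p = 0.0464). Neither was called by the exact permutation test. Without B cell library 2 neither was called, and the differences were 0.542 points for Hist1h3e (0.577 with it) and 1.28 points for Hist1h4n (1.11 with it). Most fits without 1 library called 0 or 1 member.

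In the flanks, 9 of 54 members were called between B and T cells (16.7%, against 15.1% of all genes). All 9 were higher in B cells (10.2% of all genes were called in that direction), and none was higher in T cells (4.82% of all genes). Called differences of at least 10 points were found for Hist1h2an and Hist1h2ab (3.7%, against 4.61% of all genes). Hist1h4m and Hist1h2ao, with B minus T differences of -25.3 and -12.8 points, were not called by the quasi-binomial test. As in the gene window, no member had separate libraries (5.68% of all genes). Pooling both sides can hide opposite differences, as at Hist1h2bp, whose flank was not called. Its upstream side was at 76.8% in B cells versus 62.9% in T cells, and its downstream side at 71.3% and 82.5%. Single sides were not tested.

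Hist1h2an, an H2A gene of the first block, had flank levels of 62.1%, 68.5% and 72.6% (lowest, median and highest library) in B cells versus 50%, 55.1% and 64.8% in T cells. Its means were 67.5% ± 3.31 and 55.4% ± 5.12 (SD, n = 8), and the difference of 12.1 points had an adjusted p of 0.00112 in the quasi-binomial test. The upstream side was at 80.3% and 69.6%, and the downstream side at 55.0% and 43.2%. Both sides moved the same way, and only the highest T cell library reached the B cell range. Hist1h2ab, in the largest block, had 46.9%, 54.9% and 65.7% in B cells versus 32.9%, 44.6% and 52.9% in T cells, a difference of 11.5 points (quasi-binomial adjusted p = 0.00421). There the downstream side, which reaches Hist1h3b, was at 22.3% and 13.3%, and the upstream side at 89.97% and 87.3%. For both genes the pooled difference was larger than that of either side. The upstream and downstream sides differed by 10.7 and 11.8 points at Hist1h2an, and by 2.70 and 9.07 points at Hist1h2ab. A pooled level also depends on how the calls divide between the sides, a part that was not tested.

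A neighbouring H2A and H2B pair followed. Hist1h2bk had flank levels of 71.6%, 77.3% and 79.0% in B cells versus 64.8%, 69.7% and 71.9% in T cells, a difference of 7.61 points (quasi-binomial adjusted p = 0.00669). Hist1h2ah had 68.1%, 70.99% and 76.1% in B cells versus 60.8%, 63.9% and 69.05% in T cells, a difference of 6.59 points (quasi-binomial adjusted p = 0.00791). Both showed a small overlap of the libraries. The genes share 16 flank CpGs, 40% of those of Hist1h2ah and 64% of those of Hist1h2bk, so they are not separate observations.

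The H3 genes Hist1h3g and Hist1h3i and the H2A gene Hist1h2ag had lower flanks with pooled differences of 7.88, 5.09 and 5.91 points. Hist1h3g stood at 23.0%, 28.3% and 34.3% in B cells versus 13.5%, 21.3% and 26.3% in T cells (quasi-binomial adjusted p = 0.0183). Its downstream side was at 92.8% and 85.3%, and its upstream side, which reaches Hist1h2af, at 8.46% and 5.39%. The sides differed by 7.47 and 3.07 points, each less than the pooled difference. Hist1h3i was at 19.2% ± 2.50 and 14.1% ± 2.52 (SD, n = 8), and shares 9 flank CpGs with Hist1h2an. Its quasi-binomial adjusted p was 0.0146. Hist1h2ag was at 23.7% ± 3.95 and 17.8% ± 2.97 (adjusted p = 0.0309 in the quasi-binomial test). The upstream and downstream sides of Hist1h2ag differed by 4.65 and 4.35 points, each less than the pooled difference, as at Hist1h3g. How far these pooled differences reflect the split of calls between the sides was not tested. At the extremes, Hist1h2aa differed by 2.80 points at about full methylation (97.6% and 94.8%, quasi-binomial adjusted p = 0.0292) and Hist1h1d by 1.11 points near the floor (2.65% and 1.54%, adjusted p = 0.0238).

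For the flanks, the exact permutation test also called all 9 genes, and 6 of them, Hist1h2an, Hist1h2ab, Hist1h3g, Hist1h2bk, Hist1h2ah and Hist1h3i, were called in all 16 fits without 1 library. The exact permutation test called 10 flanks in all, the other being Hist1h2ao, which was higher in T cells. By the quasi-binomial test, the share of members called (16.7%) was close to that of all genes (15.1%). Without B cell library 2, 8 members were called. Fits without 1 library called from 6 members, without T cell library 14, to 10, and 2805 to 3139 of all 21390 genes. Fewer members were called with BS or oxBS libraries alone, or without CpGs near genes, as given at the end.

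**Figure D5:**
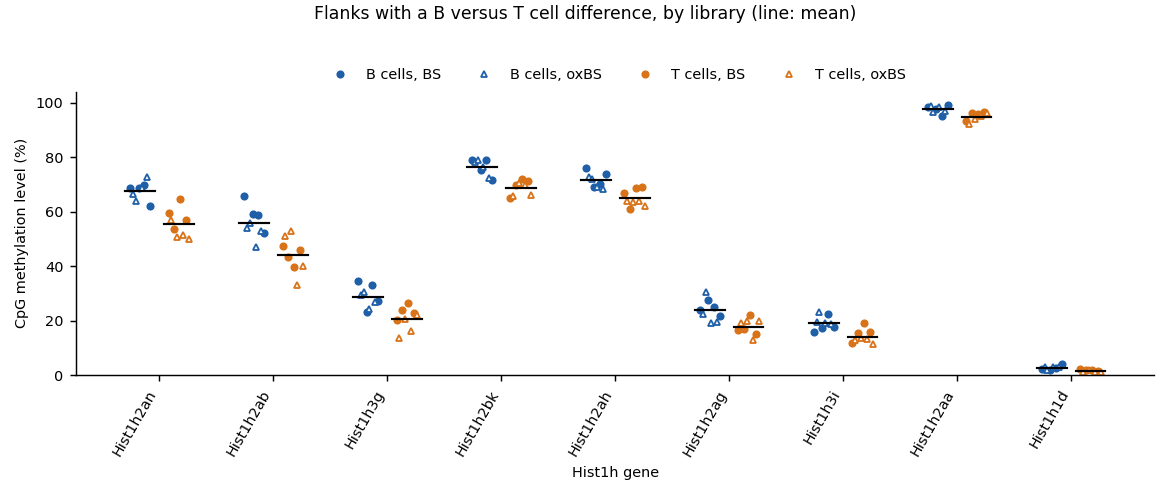
CpG methylation level (%) of each library over the 1 to 3 kb flanks for the 9 Hist1h genes called between B and T cells, with filled circles for BS, open triangles for oxBS and a line at the mean of 8 libraries. B cell means are higher for all 9 genes, by most at Hist1h2an (67.5% and 55.4%) and Hist1h2ab (55.7% and 44.1%), and the ranges of the cell types overlap at each.

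The study searched these libraries for loci that vary between individuals, so the spread between libraries was measured for each member as the highest minus the lowest level within a cell type. In the gene window, the median range was 2.65 points over the B cell libraries and 1.40 points over the T cell libraries. The ratio of a member's SD to the SD of binomial sampling of its calls had a median of 1.63 over the members in B cells, and of 1.15 in T cells. Neighbouring calls of a read are not independent, so the binomial SD is a lower limit for counting error. The widest gene windows in B cells were Hist1h1t with 15.9 points, Hist1h2bc and Hist1h3d, and in T cells Hist1h3d with 10.4 points, Hist1h1t and Hist1h2bp. Each of these genes had a mean level of 10.0% or more in both cell types.

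The flanks varied more in points, with a median range of 10.0 points in B cells versus 9.35 points in T cells. Scaled to the binomial SD, B cell flanks did not vary more: their median ratio was 1.60, against 1.63 for gene windows. For T cells the flank ratio was 1.62, against 1.15 for gene windows. Hist1h4m had the widest flank, at 2.44%, 37.5% and 81.6% (lowest, median and highest library) in B cells versus 38.3%, 64.6% and 82.3% in T cells. These levels rested on 55 to 218 calls a library from the downstream side alone, since the 110 upstream CpGs, all in recurring sequence, had almost no calls, and the difference of -25.3 points did not pass the quasi-binomial test (adjusted p = 0.160). Hist1h2ap, at 28.2%, 49.2% and 65.0% in B cells, and Hist1h2ao, at 7.62%, 17.9% and 34.8% in T cells, belong to the same part of the first block and had 61 of 96 and 59 of 139 flank CpGs in such sequence. The levels of Hist1h2ap too came from the downstream side alone, as did nearly all calls of Hist1h2ao. Hist1h2ao was higher in T cells by 12.8 points, with a quasi-binomial adjusted p of 0.0571. It was called by the exact permutation test (adjusted p = 0.0242) and in the fits without B cell library 1 or T cell library 5 or 15, the only member called higher in T cells under any setting tried. Hist1h3b and Hist1h2bb, with 0 of 35 and 34 of 78 flank CpGs in recurring sequence, were also among the widest, Hist1h3b with a range of 24.2 points in B cells (17.8 in T cells) and Hist1h2bb with 23.0 points in T cells (14.9 in B cells).

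Neither sex nor assay gave a call. The quasi-binomial test called 0 of 50 gene windows between females and males, with 4 at an unadjusted p under 0.05 (6.44% of all genes), while 1.55% of all genes were called. Between BS and oxBS it called 0 of 50, with 2 at an unadjusted p under 0.05, and 0 of all 21393 genes, of which 2060 (9.63%) had an unadjusted p under 0.05. In the flanks and at the start site, the quasi-binomial test again called 0 members for either term. For sex, 0.416% of all flanks and 2.49% of all start windows were called, and 2 member flanks and 3 member start windows had an unadjusted p under 0.05 (5.24% and 7.49% of all genes). For assay, 1 member flank and 3 member start windows did (11.7% and 6.24% of all genes). An interaction of cell type with sex or assay, added after the data were seen, was called for 0 members in any window. Over all genes, cell type by assay was called for 766 of 21393 gene windows and cell type by sex for 1, and neither for any flank or start window. Among the members, the smallest quasi-binomial adjusted p was 0.202 at Hist1h2ad (cell type by assay, gene window).

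Other histone genes gave a background for these levels. The 13 measured clustered histone genes outside chromosome 13 had a median gene window level of 6.85% in B cells versus 5.25% in T cells, and 12 of 13 were at 20% or less. Of these, 3 were called (23.1% of all genes, 19.4% higher in B cells), all higher in B cells, among them Hist2h3b at 6.85% and 3.84% and the H2B gene Hist2h2be at 15.7% and 11.01%. The 15 replication-independent histone genes, whose products replace histones outside DNA synthesis, had a median of 53.8% in B cells versus 53.8% in T cells, with 6 called (23.1% of all genes), 5 of them higher in B cells. H3f3a (H3.3) was at 32.0% and 25.2% in the gene window but at 0.445% and 0.125% at its start. The other H3.3 gene, H3f3b, was at 14.7% and 13.2% in the gene window and at 82.7% and 92.2% at its annotated start. The linker histone gene of germ cells H1fnt was at 95.9% in both cell types, and H1foo, of oocytes, at 80.1% and 83.8%.

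The 24 genes of histone mRNA synthesis and histone chaperones had start windows with a median of 0.844% in B cells versus 0.435% in T cells. Npat, which switches on histone gene transcription in S phase, was at 0.382% and 0.242% there, and Slbp, which binds the stem-loop of histone mRNAs, at 0.788% and 0.449%. In their gene windows, 10 of the 24 were called, 9 of them higher in B cells (23.1% and 19.4% of all genes), among them Slbp (50.1% and 42.4%) and E2f4 (37.3% and 29.2%). The 49 other protein_coding genes between the first and the last Hist1h gene, 36 of them vomeronasal receptor genes, had a median gene window level of 85.0% in B cells versus 84.8% in T cells. In the gene window none of these neighbours was at 20% or less, 36 were at 80% or more, and 3 were called between the cell types (23.1% of all genes). At the start site, 7 of the 31 neighbours measured were at 20% or less (64.9% of all genes). All 7 were among the 13 neighbours other than vomeronasal receptor genes.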

How the data were processed

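WGBS libraries of B and T cells were deposited as 1 table per library of unmethylated and methylated counts of calls at each CpG (mm10). Per the submitters' processing notes, the authors used Trim Galore 0.6.0, Bismark 0.20.0 and SAMtools 1.3.1, and per their methods they kept alignments with a mapping quality of at least 10. Calls of both strands were combined, and no count was normalised. Pooled calls weight deeply covered CpGs. The 16 tables had no columns of other samples.

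Here, calls at reference CpGs were pooled over each window, and the methylation level was the methylated share of calls. Libraries were kept with at least 20 calls over at least 4 CpGs, and genes with at least 5 such libraries of each cell type. A quasi-binomial logistic model with cell type, sex and assay was fitted for every protein_coding gene, with an F test, a dispersion of at least 1 and Benjamini-Hochberg adjustment over all genes. "Called" means an adjusted p under 0.05. Single members were also compared with a two-sided exact permutation test of 8 against 8 library levels. Groups were taken from the labels. The files give no base qualities and no read identity, so intervals that treat calls as independent molecules are not given.

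Named are the lowest and highest member of each histone type, members at 20% or more, the 3 testis-associated genes, members called between cell types and those with the widest library spread. The members, gene lists and rules were chosen with earlier results of these data known. The lists were cell type markers (B, T, CD8 T, myeloid, NK and erythroid), other histone genes, genes of histone mRNA synthesis and chaperones, and the neighbouring genes. The model was tested on simulated data with known shifts of 0.5 and 1 in the log odds of methylation, 100 genes each. It called 88 and 98 of them in the gene window, 33 and 91 in the flanks, and 4 and 33 at the start site. Small differences at the start site would thus mostly be missed. Without a shift it called 2 of 21193 gene windows, 1 of 21190 flanks and 0 of 19463 start windows.

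Alternatives changed the minimum of calls, the window, the test, the dispersion limit, the assays, the libraries and the CpGs in recurring or neighbouring sequence. The coding window, the interaction terms and the separate look at B cell library 2 were chosen after seeing the data. Python 3.11.15, NumPy 2.4.6, SciPy 1.17.1, pandas 2.3.3 and Matplotlib 3.10.9 were used.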

Additional observations from a re-analysis of the deposited data

Results flagged for a closer look

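A library lay apart from the other 7 of its cell type by Dixon's criterion in 16 of the 86 groups of 8 libraries examined. Chance marks about 1 group in 20, and windows in which most libraries stood at 0 are marked by a single methylated call.

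B cell library 2 (male, oxBS) stood high in 5 of these groups. Its level was 4.31% over the gene window of Hist1h1b, where the next library was at 2.01%, and 1.27% over that of Hist1h2bj, where the next was at 0.425%. Its pooled level was 2.42% over the 39 members under 5% in the gene window and 1.53% over the 46 members under 5% at the start site, and its median level over the members at the start site was 1.24%. The next libraries were at 1.58%, 0.732% and 0.578%.

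T cell library 8 (male, oxBS) was marked at 5 places. It was lowest at Hist1h2aa (94.5%, the next at 96.0%) and Hist1h2be (54.1%, the next at 56.9%), and highest at Hist1h4d (6.18%, the next at 4.31%). At Hist1h3e it held the only methylated call of the T cells, with 0.214% in the gene window and 0.220% at the start site.

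The remaining places concerned Hist1h4h, Hist1h4n and Hist1h1d. B cell library 12 (female, BS) was at 2.11% over the gene window of Hist1h4h, the next being at 0.169%, and at 4.20% over the flanks of Hist1h1d, the next being at 2.92%. T cell library 13 held the only methylated call of the T cells at Hist1h4h (0.138%). T cell library 16 did so at Hist1h4n, with 0.524% in the gene window and 0.820% at the start site, where B cell library 11 stood at 5.56%, the next being at 1.82%.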

How the results depend on the processing

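The B minus T differences of named members were refitted under 6 alternatives (a minimum of 10 calls, CpGs of at least 5 calls, no dispersion limit, the exact permutation test, and BS or oxBS libraries alone), and no difference called in the report changed sign under these, though some that were not called did. For the gene window, 10 members were called between B and T cells. The count was 0 with CpGs of at least 5 calls only, with a limit of 10 points, and with BS or oxBS libraries alone. It was 6 without recurring CpGs and 6 with no margin around the gene. Leaving out 1 library gave 4 to 11, with 4 without B cell library 2, 5 without T cell library 6, 8 or 14, and 6 without B cell library 9. For the flanks, 9 members were called, with 2 under a limit of 10 points (4.61% of all genes) and 6 to 10 with 1 library left out. The count was 0 in BS and 2 in oxBS libraries alone, and 5 without CpGs near genes. These last 3 counts stand without the share of all genes, and single assays leave 4 libraries a cell type. They are therefore not read as a result about the members. At the start site, 2 were called, with 0 under the limit on CpG depth, the exact permutation test, the limit of 10 points and either assay alone, 1 without recurring CpGs, and 0 to 3 with 1 library left out.

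Of the gene window medians by type, H1 (4.62%) moved to 6.94% as a mean of CpG fractions, 1.22% with no margin, 7.32% with 1000 bp and 0.936% over the coding window. H2B (1.298%) moved to 0.374%, 3.57% and 0.547% in these 3 windows and to 2.35% without recurring CpGs. H4 moved to 0.354% with no margin. With 1000 bp, H2A stood at 2.07%, H3 at 3.76% and H4 at 4.14%. Flank medians without CpGs near genes are in the report (91.5% for H1, 79.1% for H2A, 85.7% for H2B, 75.5% for H3 and 88.4% for H4). Without recurring CpGs the flanks of H1 were at 34.4%, H2A 31.4%, H2B 46.2% and H3 39.5%. With CpGs of at least 5 calls, H2A was at 20.9% and H2B at 30.0%, and as a mean of CpG fractions H2B was at 23.2%. The median of gene window minus flank (-22.5 points) became -25.8 with CpGs of at least 5 calls, -36.8 without recurring CpGs and -78.4 without CpGs near genes. The cause of these shifts was not tested. Levels near 0 rest on few methylated calls: Hist1h4h, Hist1h4n and Hist1h3e had 1 methylated call each over all T cell libraries, and the assay subsets hold 4 libraries a cell type.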
